A study of Mus musculus with 6 samples.

Results

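FoxO and FoxP genes encode 2 subfamilies of forkhead transcription factors. The 7 genes described here were taken by symbol from a table of 55487 genes: Foxo1, Foxo3, Foxo4 and Foxo6, and Foxp1, Foxp2 and Foxp4. RNA was sequenced from cells sorted from the subventricular zone of adult mice, the strip of tissue beside the lateral ventricle where new neurons are made. There were 2 groups with 3 libraries each (A, B and C), on a mixed C57BL/6;Sv/129;FVB/N background. The heterozygous group is labelled E2F1(+/-);E2F3(F/+), with 1 intact copy of E2f1 and 1 floxed copy of E2f3. The knockout group is labelled E2F1(-/-);E2F3(F/F), with no intact copy of E2f1 and both copies of E2f3 floxed. Both groups carried a tamoxifen-inducible Cre driven by Nestin and a yellow fluorescent reporter at the R26 locus. Mice of both groups were 6 to 10 weeks old at the first of 5 daily tamoxifen doses (200 mg/kg), and cells were collected 10 days after the last dose. Nestin marks neural stem and progenitor cells, so the sort takes recombined stem cells and also their reporter-positive descendants. Each library pooled several mice to reach at least 200000 cells, so differences between libraries are differences between pools. Both E2F genes differ between the groups, and their effects cannot be told apart.

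All forkhead factors bind DNA through the same winged-helix domain. Most FoxO factors are restrained by insulin and growth factor signalling. The kinase AKT phosphorylates them, and 14-3-3 proteins then bind them and hold them out of the nucleus. When that signal is weak they enter the nucleus and turn on genes of cell cycle arrest, stress resistance and cell death, and in the adult brain they are known for keeping neural stem cells from being used up. FoxP factors pair with each other through a leucine zipper and mostly repress transcription, with the help of CtBP and the NuRD deacetylase complex. Foxp2 is known for its part in vocal and motor circuits and is, like Foxp1, a marker of striatal projection neurons.

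Reads assigned to genes numbered 19798675 to 25982361 per library. E2f1 was at 1152, 1388 and 1029.5 normalized reads in heterozygous A, B and C and fell to 375, 483 and 516 in knockout A, B and C (log2 change -1.38, SE 0.22, limma adjusted p = 0.00559). E2f3 was at 205 to 293 and at 231 to 324 (log2 difference 0.09 ± 0.28, adjusted p = 0.845), a count over the whole gene that does not check recombination. The E2f1 count is also over the whole gene and does not by itself check the genotype. The source of the E2f1 reads left in knockout libraries was not tested. Normalized reads are read counts divided by 1 size factor per library. Summed reads of 10 neuroblast markers were 47090 to 71946 in heterozygous and 9848 to 11697 in knockout libraries. For 10 proliferation markers the sums were 35069 to 58940 and 9015 to 17903, and for 10 markers of quiescent stem cells and astrocytes 306147 to 457596 and 408971 to 705581. Among markers of other cells, 7 of 10 ependymal markers rose, and 0 of 10 were called for each of the endothelial, microglial and oligodendrocyte lineage lists. The sums of 10 ependymal markers were 13255 to 15268 in heterozygous libraries and 79651, 47777 and 18360 in knockout A, B and C, and those of 10 endothelial markers were 3859 to 4105 and 21792, 7984 and 2992. Microglial sums were 1500 to 7669 and 1680 to 12127, oligodendrocyte lineage sums 40588 to 60361 and 63561 to 79394, and those of striatal and mature neurons 2906 to 3767 and 3250 to 3720. This last sum mixes opposite moves: of 9 tested striatal and mature neuron markers 2 rose and 3 fell. The share called, 55.6%, stands beside 15.8% of all genes tested.

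Of the 7 genes, 2 fell and 1 rose in knockout cells. Foxp2 fell 6.11-fold, Foxo6 fell 3.08-fold and Foxo1 rose 1.80-fold, while Foxo3, Foxo4, Foxp1 and Foxp4 did not pass the test. All 7 genes had a mean of at least 10 normalized reads and entered the fit of 18227 genes (limma on log2(value + 1), Benjamini-Hochberg adjusted p under 0.05 over all genes tested). In that fit 15.8% of genes were called, 7.23% higher and 8.59% lower. With 7 genes, a count of 3 called can be set beside that share but not tested against it. The groups did not overlap for the same 3 genes, as for 38.7% of all genes tested.

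**Figure D1:**
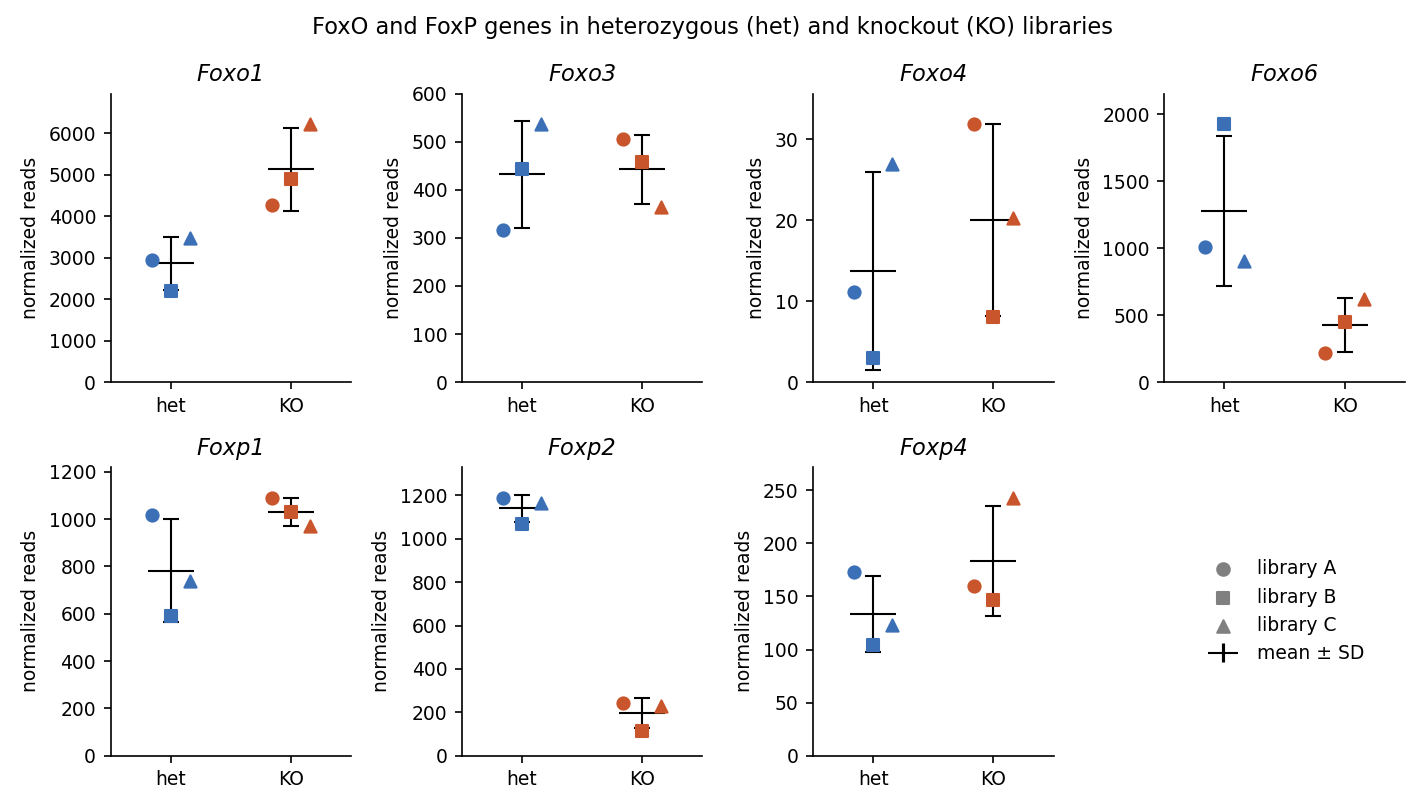
Normalized reads (vertical axes, each from 0) of the 7 genes in the 3 heterozygous (blue) and 3 knockout (orange) libraries, with marker shapes for libraries A, B and C and black lines for mean ± SD. Foxp2 and Foxo6 lie lower and Foxo1 higher in every knockout library, while the groups of the other 4 genes overlap.

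Foxp2 (ENSMUSG00000029563, chromosome 6, 14901349 to 15441977, plus strand) had the largest change of the 7. Its values were 1188, 1070 and 1165 normalized reads in heterozygous A, B and C, and 241, 115 and 231 in knockout A, B and C. The heterozygous libraries lay close together, and all 3 knockout libraries lay far below them, with B the lowest. The mean went from 1141 ± 62.8 to 196 ± 70.1 (SD, n = 3 per group), which is -2.61 on the log2 scale (SE 0.31, adjusted p = 0.00142 from limma). The gene was still counted in each knockout library, with 220, 129 and 228 recovered reads. The call held in each of 17 alternative fits, with adjusted p of at most 0.0225, a value reached without heterozygous B.

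Foxo6 (ENSMUSG00000052135, chromosome 4, 120267079 to 120287349, minus strand) encodes a FoxO factor found mainly in the brain. It stood at 1012, 1925 and 906 normalized reads in heterozygous A, B and C, and at 215, 451 and 619 in knockout A, B and C. Heterozygous B was well above the other two of its group, and knockout A was the lowest. The mean went from 1281 ± 561 to 429 ± 203 (SD, n = 3), a log2 change of -1.62 ± 0.41 (limma adjusted p = 0.0299). The change was not called without heterozygous A (adjusted p = 0.0771), heterozygous B (0.133) or knockout B (0.0786), nor without a mean-variance trend (0.0930), and stayed between -1.95 and -1.19 on the log2 scale in all alternatives. The neighbouring antisense gene Foxo6os lies 4000 bases away on the opposite strand, so its model shares no bases with Foxo6. Foxo6os was at 8.07, 23.5 and 23 normalized reads in heterozygous and 0, 13.4 and 19.2 in knockout A, B and C (log2 difference -1.40 ± 1.16, adjusted p = 0.424).

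Foxo1 (ENSMUSG00000044167, chromosome 3, 52268336 to 52353221, plus strand) was the member that rose. Its values were 2937, 2201 and 3469 normalized reads in heterozygous A, B and C, and 4277, 4895 and 6216 in knockout A, B and C. The lowest knockout library lay above the highest heterozygous library. The mean went from 2869 ± 637 to 5129 ± 991 (SD, n = 3), a log2 change of 0.85 ± 0.22 (limma adjusted p = 0.0350). The rise was not called without heterozygous A (adjusted p = 0.0938), heterozygous B (0.120), knockout B (0.118) or knockout C (0.0553), nor without a mean-variance trend (0.101), with changes of 0.67 to 0.99 over all alternatives. An antisense gene model, Gm20402, overlaps exons of Foxo1 and had means of 0 normalized reads in both groups. How reads in the overlap were assigned is not given, so the count of Foxo1 may lack some of them. The merged exon length of Foxo1, used below for levels per kb, includes the overlap.

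The other FoxO genes showed no difference beyond the spread between libraries. Foxo3, the FoxO factor best known in adult neural stem cells, was at 316, 444 and 536 normalized reads in heterozygous A, B and C and at 506, 458 and 363 in knockout A, B and C. The groups overlapped fully, with a log2 difference of 0.05 ± 0.27 (limma adjusted p = 0.907). Foxo4 was barely detected, at 11.1, 2.94 and 27.0 normalized reads in heterozygous and 31.8, 8.01 and 20.2 in knockout libraries. These rest on 3 to 29 recovered reads per library, and the log2 difference of 0.75 ± 0.89 (adjusted p = 0.588) says little at this depth.

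Foxp1 and Foxp4 had positive differences that did not pass the test. Foxp1 was at 1018, 589 and 739 normalized reads in heterozygous A, B and C and at 1089, 1028 and 971 in knockout A, B and C (log2 difference 0.43 ± 0.23, limma adjusted p = 0.225). The knockout libraries lay close together, and heterozygous A lay within their range. A readthrough gene model on the same strand, Gm20696, shares exons with Foxp1. How reads in these shared exons were assigned is not given, so the count of Foxp1 may lack some of them. Its merged exon length, used below for levels per kb, includes the shared exons. Gm20696 had means of 53.5 and 59.8 normalized reads (log2 difference 0.09 ± 0.45, adjusted p = 0.905). Foxp4 was at 174, 104 and 123 normalized reads in heterozygous and 160, 147 and 243 in knockout libraries (0.45 ± 0.35, adjusted p = 0.389), with overlapping groups.

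**Figure D2:**
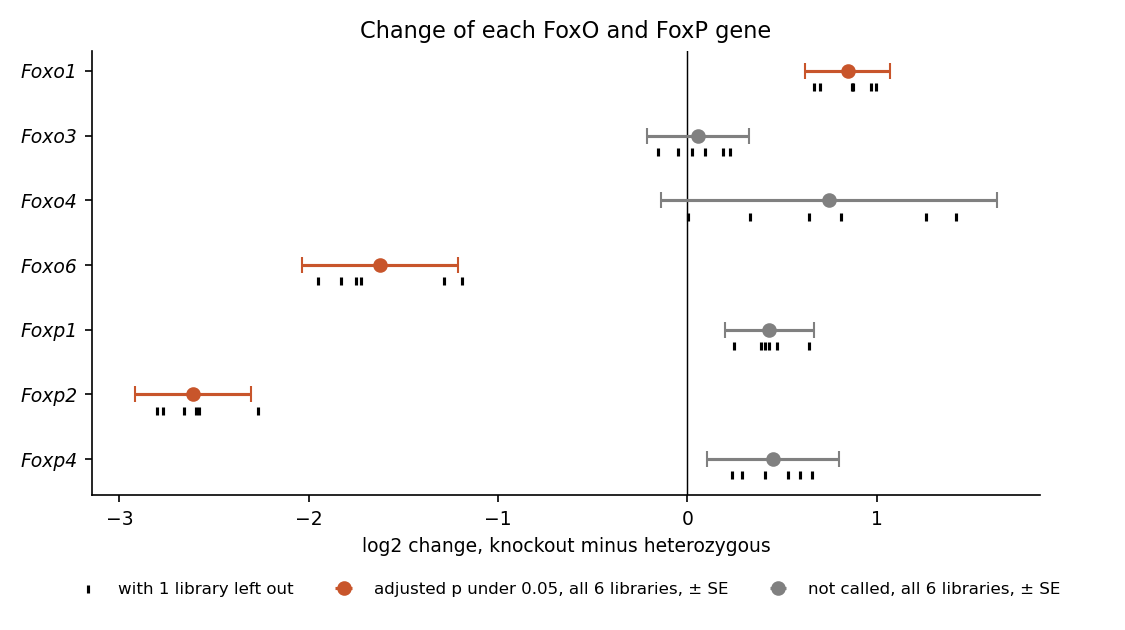
Log2 change of each gene, knockout minus heterozygous (horizontal axis), from the fit with all 6 libraries with its SE (orange where adjusted p is under 0.05, grey otherwise) and, as ticks, from the 6 fits that leave out 1 library each. The ticks of Foxp2, Foxo6 and Foxo1 stay on 1 side of 0, and those of Foxo3 lie on both sides.

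The authors' deposited table called the same 3 genes. It gave log2 fold changes of -2.55 ± 0.31 for Foxp2 (adjusted p = 5.78e-14), -1.58 ± 0.39 for Foxo6 (0.000794) and 0.84 ± 0.26 for Foxo1 (0.00734). For Foxo3, Foxo4, Foxp1 and Foxp4 the authors' deposited table gave adjusted p of 0.957, 1, 0.300 and 0.384.

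Levels were compared between genes per kilobase of merged exon length. In heterozygous libraries Foxo6 (490 ± 214 normalized reads per kb) and Foxo1 (331 ± 73.5) were the most abundant, and their ranges overlapped. Foxp2 (69.8 ± 3.84), Foxo3 (57.0 ± 14.6) and Foxp1 (56.9 ± 15.8) followed, each overlapping its neighbours in this order, then Foxp4 (27.1 ± 7.31) and Foxo4 (3.92 ± 3.51), each with a range below that of the gene before it. In knockout libraries Foxo1 (592 ± 114) lay above Foxo6 (164 ± 77.7) in all 3. Foxp1 (74.9 ± 4.28), Foxo3 (58.4 ± 9.57), Foxp4 (37.2 ± 10.6), Foxp2 (12 ± 4.29) and Foxo4 (5.74 ± 3.41) followed. The ranges of Foxo3 and Foxp4 overlapped, as did those of Foxp2 and Foxo4. Foxp2 thus moved from the third to the sixth place in this order of mean levels.

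Within each subfamily some shares of the summed level per kb did not overlap between the groups, while the totals did overlap. Summed FoxO levels were 771, 1050 and 825 normalized reads per kb in heterozygous and 652, 800.3 and 1008 in knockout A, B and C. Foxo1 made up 44.0%, 24.2% and 48.5% of the FoxO sum in heterozygous A, B and C, and 75.7%, 70.6% and 71.2% in knockout A, B and C. Foxo6 went the other way, from 50.2%, 70.1% and 42.0% to 12.6%, 21.6% and 23.5%. Per kb, Foxo1 was above Foxo6 in every knockout library and below it in heterozygous A and B. This order rests on the division by length: in normalized reads not divided by length, Foxo1 was above Foxo6 in all 6 libraries. Summed FoxP levels were 182, 129 and 150 per kb in heterozygous and 126, 112 and 134 in knockout libraries.

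Within the FoxP sum the share of Foxp2 was 46.0% ± 5.48 in heterozygous and 9.5% ± 2.83 in knockout libraries (SD, n = 3). Foxp1 took 36.5% ± 3.84 and 60.8% ± 7.33, and Foxp4 17.4% ± 1.68 and 29.7% ± 6.12. The ratio of Foxp1 to Foxp2 per kb was 0.654 to 1.02 in heterozygous libraries and 5.01 to 10.6 in knockout libraries. For the 5 genes whose shares did not overlap between groups (Foxo1, Foxo6, Foxp1, Foxp2 and Foxp4), a two-sided exact permutation test over the 6 libraries gave p = 0.10, the smallest it can give. Any share without overlap must give this value, so the p adds nothing to the lack of overlap. The permutation test gave 0.7 for Foxo3 and 0.6 for Foxo4, and these 7 shares were the values tested in this way. After Benjamini-Hochberg adjustment over the 7 shares the permutation p of those 5 genes was 0.14. Shares within a sum are tied to each other, so a fall of one raises the others. Merged exon length covers every annotated isoform and is longest for Foxp2 (16346 bases). Without division by length the differences between the groups changed in size for all 5 of these genes and kept their sign. They were -42.4 points in place of -36.5 for Foxp2, 35.8 in place of 24.2 for Foxp1, and 6.56 in place of 12.3 for Foxp4. Among FoxO genes they were 22.8 in place of 33.6 for Foxo1 and -21.2 in place of -34.9 for Foxo6. The undivided share of Foxo1 was 48.1% to 70.3% in heterozygous and 84.2% to 86.1% in knockout libraries, and that of Foxo6 was 18.3% to 42.1% and 4.27% to 8.58%.

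**Figure D3:**
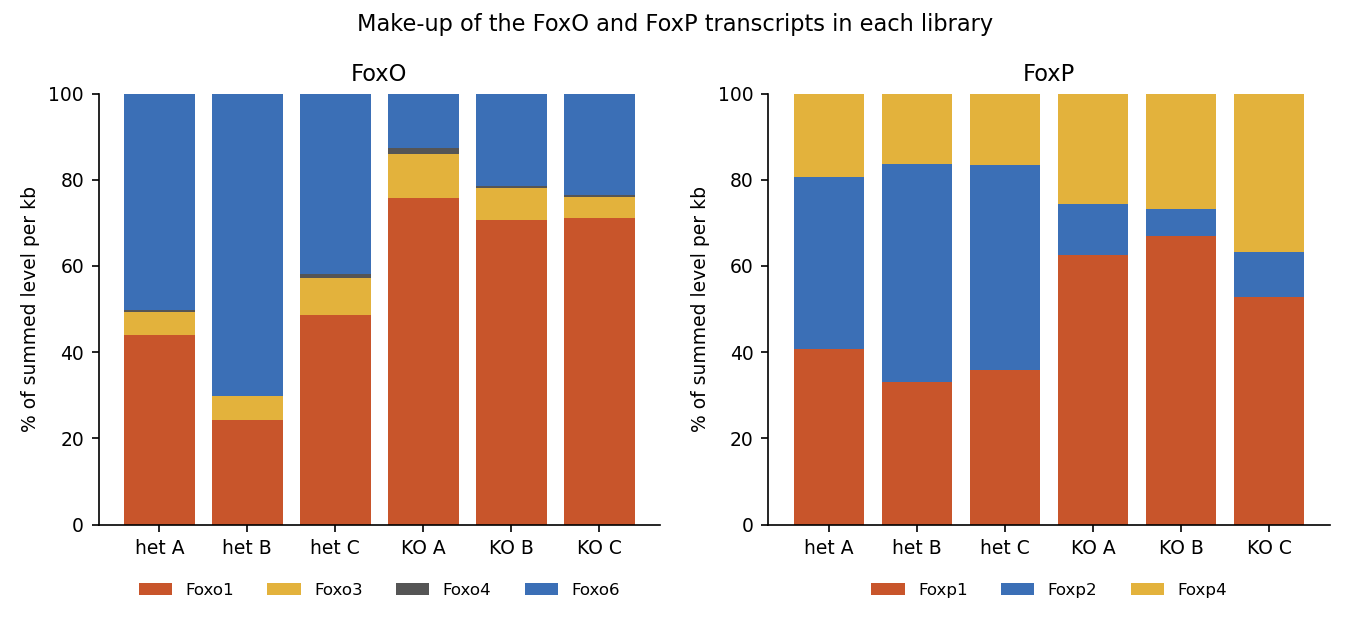
Share of each gene in the summed level per kilobase of its subfamily (vertical axis, percent), with 1 stacked bar per library, FoxO on the left and FoxP on the right. Foxo1 reaches 70.6% to 75.7% and Foxp2 6.29% to 11.7% in the knockout (KO) libraries.

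The levels of the 3 called genes were set beside the summed markers of each library. In bulk RNA, fewer cells of a type and less RNA per cell cannot be told apart. Foxp2 stood at 17.0, 14.9 and 24.7 reads per 1000 reads of the 10 neuroblast markers in heterozygous A, B and C, and at 20.6, 11.7 and 20.9 in knockout A, B and C. These values overlapped, although Foxp2 itself and all 10 neuroblast markers were lower in knockout cells. Relative to the quiescent and astrocyte markers Foxp2 stayed separated, at 2.55 to 3.50 and 0.18 to 0.59 reads per 1000 marker reads. Of the 8 marker lists, the groups overlapped for 2, neuroblast and proliferation.

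Foxo6 and the summed proliferation markers had their libraries in the same order of level: heterozygous B, A and C, then knockout C, B and A. Foxo6 stood at 21.7, 32.7 and 25.8 reads per 1000 proliferation marker reads in heterozygous A, B and C and at 23.8, 40.6 and 34.6 in knockout A, B and C, values that overlapped. Per 1000 neuroblast marker reads its ranges also overlapped, at 14.4 to 26.8 and 18.4 to 56.2. So did the wider ranges per 1000 microglial marker reads, at 118 to 675 and 17.7 to 369, which makes 3 of the 8.

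Foxo1 stood at 8.16, 7.19 and 7.58 reads per 1000 reads of the quiescent and astrocyte markers in heterozygous A, B and C, and at 10.5, 7.70 and 8.81 in knockout A, B and C, so the groups overlapped. They also overlapped per 1000 ependymal, endothelial, microglial and oligodendrocyte lineage marker reads. Overlap was thus seen for 5 of the 8 lists and does not by itself single out the quiescent and astrocyte list. The width of the values differed between these lists. Over the 6 libraries they ran from 7.19 to 10.5 for quiescent and astrocyte and from 36.5 to 81.5 for oligodendrocyte lineage markers. For ependymal, endothelial and microglial markers they ran from 53.7 to 339, 196 to 2077 and 353 to 3701. Within the knockout group Foxo1 was highest in library C, where ependymal and endothelial sums were lowest, and lowest in library A, where those sums were highest. Within each group Foxo1 and the quiescent and astrocyte sums had the same order from low to high. It was heterozygous B, A and C, and knockout A, B and C. Between the groups the order differed, as this sum was 457596 in heterozygous C and 408971 in knockout A. Without knockout A the log2 change of Foxo1 was 0.97 (limma adjusted p = 0.0300). The marker lists set beside each gene were chosen from 8 after their values were seen. Their part in the changes of Foxp2, Foxo6 and Foxo1 was not tested.

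**Figure D4:**
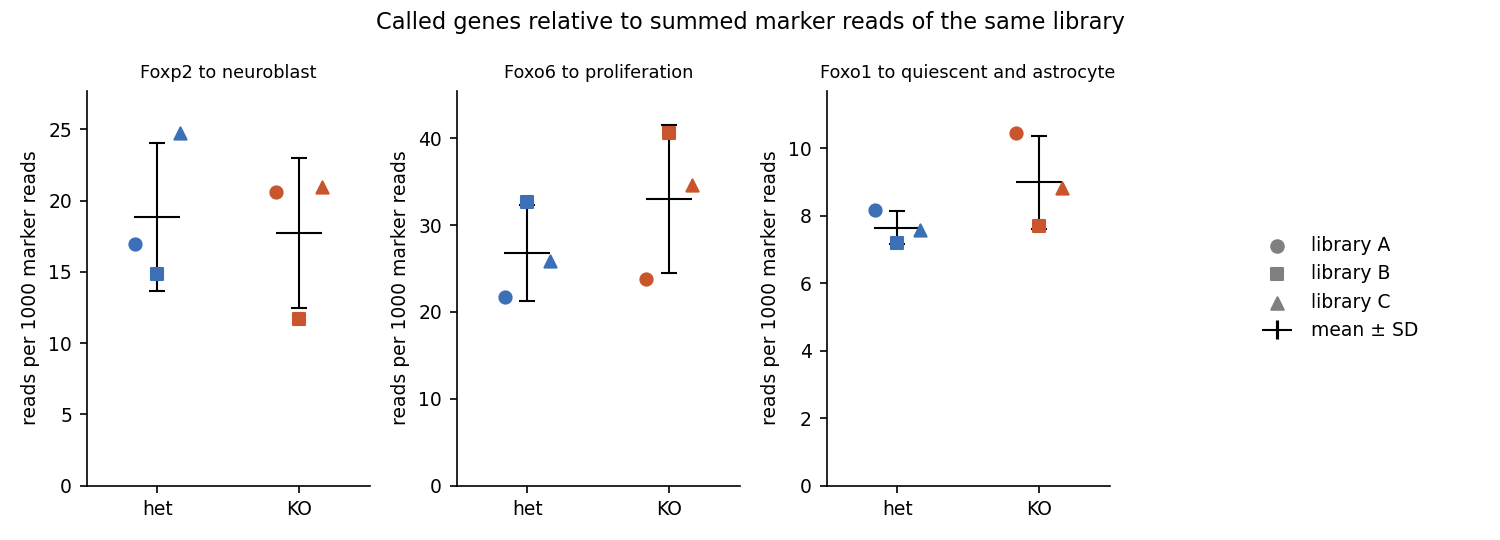
Reads of Foxp2, Foxo6 and Foxo1 per 1000 summed reads of 10 neuroblast, proliferation, and quiescent and astrocyte markers of the same library (vertical axes from 0), with 1 point per library and black lines for mean ± SD. In each panel the ranges of the heterozygous (het) and knockout (KO) libraries overlap.

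The genes most like each member over the 6 libraries were sought among 12865 other genes with a mean of at least 50, by Pearson's r of log2(value + 1). The points share 2 genotypes, so genes that differ between these rank high. With 6 points and 12865 genes, a high r can also arise between genes that have no link. Foxo3, which was not called, still reached 0.978, and the 3 genes closest to Foxo6 were not called (limma adjusted p of 0.0691 to 0.134). Links between the genes named here were not tested. Closest to Foxo1 were Palld, which encodes an actin-binding protein, Ak4, a mitochondrial adenylate kinase, and Sox9, a glial and stem cell transcription factor (r = 0.998, 0.997 and 0.997). Closest to Foxp2 were Unc79 (0.999), the kinase gene Mast1 (0.997) and the RNA-binding protein gene Mex3a (0.994). Closest to Foxo6 were Vta1, Exosc9 and the chaperonin subunit gene Cct8 (0.999, 0.998 and 0.998). For Foxp1 they were Dync2h1, Pdk1 and Atr (0.987 to 0.991), for Foxp4 Rnf149, Hs6st1 and Cnih3 (0.983 to 0.992), and for Foxo3 Srpk3, Atp5l and Vsig10 (0.973 to 0.978). The members themselves were not among each other's closest genes.

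Upstream of FoxO, of 20 genes for insulin and IGF receptors, PI3K, AKT, SGK and mTOR components 1 rose, the kinase gene Mtor, from 650.2 ± 128 to 1079 ± 33.9 normalized reads (log2 change 0.75 ± 0.21, limma adjusted p = 0.0435). The count of 1 in 20 (5%) stands beside 7.23% higher among all genes tested, and the list's median log2 change of -0.18 beside 0.05. The rise of Mtor was not called when any 1 of the 6 libraries was left out (adjusted p of 0.0572 to 0.151). Without heterozygous C, knockout A or knockout C 1 gene of the list was called lower, in place of 0 with all libraries. Akt1 did not pass the test with all libraries, at a log2 difference of -0.73 ± 0.23 (limma adjusted p = 0.0562). Of the 20 genes 5 had positive differences.

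Of 19 tested genes whose products modify FoxO proteins or hold them in the cytoplasm 8 fell and 0 rose, with a list median of -0.47, beside 8.59% lower among all genes tested. They included the 14-3-3 genes Ywhah (from 6785 ± 1395 to 3653 ± 499.7 normalized reads) and Ywhag (from 3551 ± 324 to 1969 ± 323). Skp2, a ubiquitin ligase subunit that targets Foxo1 and also the inhibitor p27, fell 2.98-fold (limma adjusted p = 0.0101), and Prmt1, an arginine methyltransferase, fell 2.21-fold (0.0159). No such gene was called without heterozygous A or heterozygous B, and 1 was called without knockout B. Without heterozygous C, knockout A and knockout C the numbers were 6, 4 and 8.

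Known FoxO target genes did not move in 1 direction. Of 17 genes of arrest and growth 5 fell and 1 rose, with a list median of -0.37, beside 8.59% lower and 7.23% higher among all genes tested. Ccng2, an atypical cyclin that FoxO factors induce, fell from 7048 ± 2147 to 1737 ± 226 normalized reads (log2 change -1.98 ± 0.24, limma adjusted p = 0.00154). The antiproliferative gene Btg1 fell 2.32-fold and the inhibitor gene Cdkn2d 2.31-fold. The cyclin genes that FoxO factors are known to repress went opposite ways: Ccnd2 fell 3.26-fold and Ccnd1 rose 2.26-fold. The arrest inhibitors Cdkn1a and Cdkn1b did not pass the test, with log2 differences of 0.48 ± 0.36 (adjusted p = 0.385) and -0.93 ± 0.29 (0.058). Calls of lower expression numbered 3 to 6, and of higher expression 0 to 3, when 1 library was left out. Leaving out heterozygous A, heterozygous B or knockout B ended the call of Ccnd1 (adjusted p of 0.0691 to 0.0954), and leaving out knockout B that of Cdkn2d (0.068).

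Of 22 target genes of stress resistance and metabolism 1 rose, G6pc3, a glucose-6-phosphatase gene (log2 change 0.69 ± 0.19, limma adjusted p = 0.0371). Only without knockout A was it still called (adjusted p = 0.0301), and leaving out each of the other 5 libraries gave 0.0509 to 0.171. That is 4.55% of the list, beside 7.23% higher among all genes tested. The list's median was 0.29, and 18 of its 22 genes had positive differences, as did 52.3% of all genes tested. The mitochondrial dismutase gene Sod2 had 0.54 ± 0.19 (adjusted p = 0.075). Of 6 tested death genes 1 rose (16.7%), Tnfsf10, which encodes the death ligand TRAIL. It stood at 3.03, 0.98 and 7.0 normalized reads in heterozygous A, B and C and at 227, 57.0 and 43.5 in knockout A, B and C (log2 change 4.39 ± 0.83, adjusted p = 0.0111). The highest Tnfsf10 value was in knockout A, which also had the highest ependymal, endothelial and microglial sums, and the part of these cells was not tested. Without heterozygous B its adjusted p was 0.058. Its heterozygous mean of 3.67 was below the filter, which it passed through the knockout libraries, and the size of its change depended on the scale: 2.05 on log2(CPM + 1), 3.02 with the pseudocount at 8, and 3.67 without knockout A.

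Of 15 NuRD and CtBP genes, corepressors of FoxP factors, 3 fell: the remodeller gene Chd3 3.64-fold (limma adjusted p = 0.00344), the deacetylase gene Hdac2 2.56-fold (0.00646) and Mbd3 1.73-fold (0.0365). The share called, 20%, stands beside 15.8% of all genes tested. The list's median was -0.36, and the call of Mbd3 was lost when heterozygous A or B or knockout A or B was left out (adjusted p of 0.0596 to 0.164). Of 12 tested partners and targets of FoxP 2 fell, a share called of 16.7%, near the 15.8% of all genes tested. Bcl11b, a zinc finger factor of striatal and olfactory neurons, went from 1290 ± 427 to 173 ± 48.6 normalized reads (log2 change -2.88 ± 0.31, adjusted p = 0.00113). Tbr1, a cortical neuron factor that binds FoxP proteins, went from 119 ± 55.2 to 23.4 ± 17.9 (adjusted p = 0.0483), and edgeR gave 0.0672. Its adjusted p was 0.162, 0.126, 0.0911 and 0.111 without heterozygous A, B and C and knockout B. Cntnap2, an adhesion gene that Foxp2 is known to repress, had a log2 difference of 1.0 ± 0.30 (adjusted p = 0.051).

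Among 16 other forkhead genes with enough reads 1 rose and 2 fell, with a list median of 0.61. The share called, 18.8%, was near the 15.8% of all genes tested. Foxj1, the master gene of motile cilia and a marker of ependymal cells, rose from 842, 693 and 866 normalized reads in heterozygous A, B and C to 5293, 3769 and 1725 in knockout A, B and C (log2 change 2.03 ± 0.36, limma adjusted p = 0.00835). Its order in the knockout libraries was that of the ependymal sums. Foxm1, which drives mitotic genes, fell 3.96-fold (adjusted p = 0.00797), and Foxn3, a checkpoint-linked repressor, fell 1.61-fold (0.0477). Foxj1 and Foxm1 were not called without heterozygous B (adjusted p = 0.0627 and 0.0565), and Foxn3 lost its call when heterozygous A or B or knockout B or C was left out (0.0618 to 0.202).

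**Figure D5:**
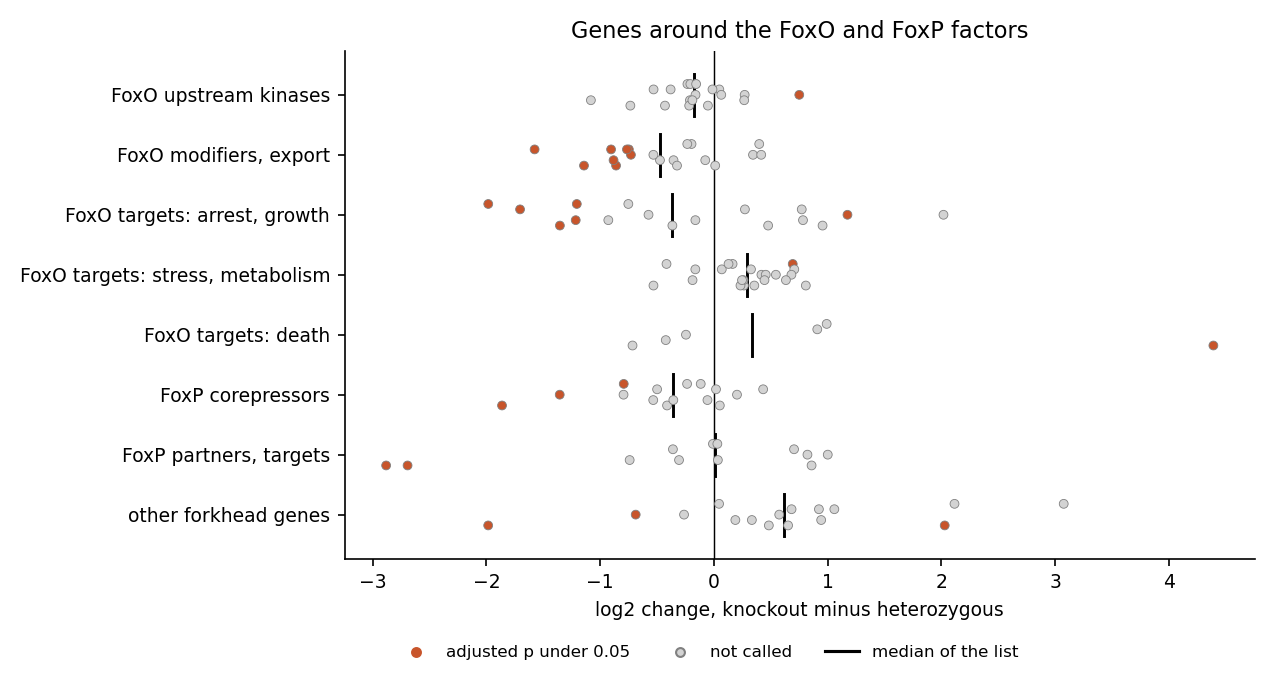
Log2 change, knockout minus heterozygous (horizontal axis), of the tested genes in 8 lists around the FoxO and FoxP factors, with 1 point per gene (orange where limma adjusted p is under 0.05) and a black line for the list's median. Most called FoxO modifiers and arrest or growth targets lie below 0, and Tnfsf10 lies farthest to the right at 4.39.

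The region just before the start of Foxo1 is shown because Foxo1 was the member that rose. It is the RefSeq promoter window on GRCm38.p6, chr3:52268087-52268336, plus strand, the 250 bases of the window that lie before its start, in lower case because no motif searched was found in it.
Foxo1: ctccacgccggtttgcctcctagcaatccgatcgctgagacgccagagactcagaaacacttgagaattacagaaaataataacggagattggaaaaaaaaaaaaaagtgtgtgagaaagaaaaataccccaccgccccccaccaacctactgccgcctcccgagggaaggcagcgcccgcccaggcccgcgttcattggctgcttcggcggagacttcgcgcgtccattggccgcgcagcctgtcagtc
RefSeq windows from 250 bases before to 50 bases after the start were matched for 4 of the 7 genes, Foxo1, Foxo3, Foxp1 (3 windows) and Foxp4. They were searched on both strands for 4 forms of the E2F site (TTTCCCGC, TTTGGCGC, TTTGCCGC and TTTCGCGC) and for the forkhead site GTAAACA. None of the 6 windows held any of these words. Of 32851 windows of this length 2.26% held an E2F form and 3.65% the forkhead word, so most windows lack them, and no match says only that these letters are not in the window.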

How the data were processed

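The deposited library values are a normalized signal: as the values themselves show, each is a read count divided by 1 factor per library. HISAT2, featureCounts from Subread, DESeq2 and GRCm38 are named in the submitters' processing notes, versions and strand setting not given in the sources used here. The authors' deposited log2 fold changes with errors, p-values, adjusted p-values, and test statistic and weight scores come from the same table. Reads came from total RNA of at least 35 ng by SMART-Seq v4 and Nextera XT, per the labels' protocols; this chemistry does not mark strand.

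Division by a step fitted for each library turned 100% of the nonzero values into whole numbers (tolerance 0.001 reads), which gave back whole reads for edgeR and DESeq2. The main test, two-sided, was limma 3.58.1 (R 4.3.3) with a mean-variance trend on log2(value + 1), genotype as the only term, for 18227 genes with a mean of at least 10 and Benjamini-Hochberg adjustment at 0.05; the +1 shrinks changes of low genes. It was also run on simulated counts with 200 changed genes, each gene drawn independently. Far more genes were called in these data (2883), so that run does not show how the test behaves on them. Alternatives used edgeR 4.0.16 (quasi-likelihood test), DESeq2 1.42.0, other scalings, pseudocounts, filters, a replicate block and leaving out the libraries singly. Locations and exon lengths come from GENCODE M21. Figures were drawn with matplotlib 3.10.9.

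The 7 genes and the lists of pathway and marker genes were chosen with earlier results of these data known. Named from each pathway list were up to 4 called genes per direction with the smallest p, or the gene of smallest p in a list with no call, and every called gene of the other forkhead list. The 3 genes with the highest r were named for each member with a mean of at least 50. Akt1, Cdkn1a, Cdkn1b, Sod2, Cntnap2, Foxc1, Foxf2, Foxo6os, Gm20402 and Gm20696 were added after their values were seen. Libraries of 1 genotype are called biological replicates in the series' design text. Some sequences and 1 marker gene are not reported here.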

Additional observations from a re-analysis of the deposited data

How the results depend on the processing

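The 1 member called higher and the 2 called lower were the same numbers under edgeR with TMM or upper-quartile scaling, DESeq2, log2(CPM + 1), smaller and larger pseudocounts, looser and stricter filters, and an adjusted p of 0.10. Without a mean-variance trend 0 members were called higher and 1 lower. With 1 library left out, 0 to 1 were called higher and 1 to 2 lower. Deviations of same-letter libraries correlated at -0.072, 0.021 and -0.10, and those of libraries with different letters at -0.087 to 0.16. So few values cannot show whether libraries of the same letter were handled together. With the letter as a replicate block 1 member was called higher and 2 lower, and 2310 genes in all in place of 2883. The count of called genes was 635, 697, 906, 2230, 2336 and 4019 without heterozygous B, knockout B, heterozygous A, knockout A, heterozygous C and knockout C, 1036 without the trend, 4364 with DESeq2 and 4757 at 0.10. With edgeR, and with the replicate block, 3 arrest and growth genes were called higher in place of 1; with edgeR 1 FoxP partner was called lower in place of 2; with the replicate block 4 FoxO modifiers were called lower in place of 8. Foxo4 was not tested at a mean of at least 50. Among the genes followed singly through the alternatives (the members, E2f1, E2f3 and the pathway genes named by rule), none that was called reversed its sign; called genes that are only counted were not followed. Foxo3, which was not called, had -0.15 without heterozygous A and -0.05 without knockout A. Depth limits Foxo4, which had 3 to 29 reads per library.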
